A study of Mus musculus with 4 samples.

Results

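The alpha class of the glutathione transferases was followed through RNA sequencing of ID8 cells with a control shRNA or an shRNA against the deubiquitylase USP9X. The 6 genes of this class were taken from the deposited table of 22063 genes by symbol, as Gsta1, Gsta2, Gsta3, Gsta4, Gsta5 and Gm3776. They were selected on the measured difference between shUSP9X and shCtrl counts, which was already known when they were proposed, so these values are described below without a test. ID8 is a mouse ovarian cancer line that was derived from ovarian surface epithelium. The 2 shCtrl libraries came from ID8 cells with a control shRNA, whose genotype the labels give as wild type, and the 2 shUSP9X libraries came from ID8 cells with USP9X knocked down by shRNA. Both groups thus shared the cell line and carried an shRNA, and no other agent is named for these libraries. For these libraries in particular, the labels do not state which shRNA sequence was used, whether TGF-β1 was added, whether the cells had been kept in hypoxia, or whether the libraries of a group came from separate cultures. A p-value therefore measures the spread between these libraries, which may be technical.

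Glutathione transferases are dimeric enzymes that join the tripeptide glutathione to electrophilic compounds, among them alkylating drugs and the aldehydes that form when membrane lipids are oxidized. Alpha-class enzymes also reduce lipid hydroperoxides and bind bilirubin and steroids, and they are known best from liver, where several of them are induced by the stress-responsive transcription factor NRF2 and by the aryl hydrocarbon receptor. GSTA4 stands out in the class for its activity toward hydroxynonenal, a toxic product of lipid peroxidation.

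In ID8 cells all 6 alpha-class genes were higher in shUSP9X than in shCtrl libraries. Together they made up 247 ± 10.8 CPM (counts scaled to a common library size by edgeR's TMM method; SD, n = 2) in shCtrl and 908 ± 5.50 CPM in shUSP9X cells, a 3.68-fold difference. Gsta4 was the most abundant member in every library and stood 2.89-fold higher. Gsta1 and its near copy Gm3776 were at low levels in shCtrl cells, between 2.36 and 4.43 CPM in a library, and stood 29.0-fold and 31.9-fold higher in shUSP9X cells.

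Usp9x, the gene targeted by the shRNA, had 5169 and 4453 counts in the shCtrl libraries and 390 and 346 counts in the shUSP9X libraries. Its level was 290 ± 11.6 CPM in shCtrl and 20.1 ± 0.57 CPM in shUSP9X cells (SD, n = 2 each). This was a log2 fold change of -3.85 ± 0.06 (SE), or a 14.4-fold lower level, with an adjusted p of 4.66e-26 in edgeR's quasi-likelihood test over 11448 genes, those left by a filter on low counts. With an offset that removes each library's trend on GC content and transcript length, the log2 fold change of Usp9x was -2.31. The total estimated count per library was 17232006 and 15611363 in shCtrl and 19978889 and 17021261 in shUSP9X.

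One library stood apart from the others in its markers of another cell type. The 10 hepatocyte markers examined summed to 0.173 and 0.063 CPM in the shCtrl libraries, 0.557 CPM in shUSP9X replicate 1 and 48.9 CPM in shUSP9X replicate 2. All 10 were above 3 counts in shUSP9X replicate 2. The most abundant of them was Alb, the gene of serum albumin, with 635 counts in shUSP9X replicate 2 and 0 in each of the other 3 libraries. Apoa2 was the only one above 3 counts in both shUSP9X libraries, at 7 and 9 counts. In shUSP9X replicate 1 the markers Alb, Ttr, Serpina1a, Fgb, Cyp2e1, Cyp3a11 and Tat were at 0. In shUSP9X replicate 2, 27 genes had at least 10 counts while the other 3 libraries had none, against 3, 5 and 0 such genes in shCtrl replicate 1, shCtrl replicate 2 and shUSP9X replicate 1. The summed level of the alpha-class transferases, which are abundant in liver, was 912 CPM in shUSP9X replicate 1, where these 7 markers were at 0, and 904 CPM in shUSP9X replicate 2. Without shUSP9X replicate 2 the log2 fold change of the summed alpha-class level was 1.89, against 1.88 with all 4 libraries. For single members, the log2 fold changes without that library were 1.54 for Gsta4, 4.92 for Gsta1, 4.99 for Gm3776, 3.56 for Gsta3 and 3.01 for Gsta2.

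**Figure D1:**
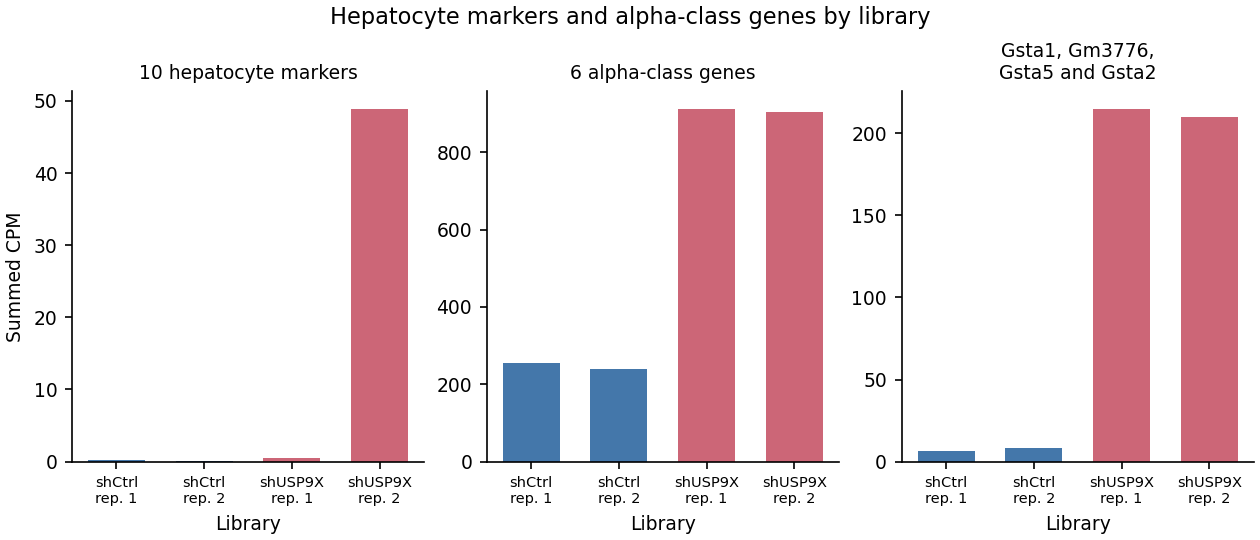
Bars give the summed TMM-normalized CPM of 10 hepatocyte markers, of the 6 alpha-class genes, and of the 4 close copies on chromosome 9 in each library, each panel on its own linear axis from 0 (blue, shCtrl; red, shUSP9X). Hepatocyte markers reached 48.9 CPM in shUSP9X replicate 2 only, whereas the alpha-class sum was 912 and 904 CPM in the shUSP9X libraries.

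The other markers were set beside the labels in the same way. Of the 13 markers of ovarian surface epithelium and mesothelium, 12 were above 3 counts in both shCtrl libraries and 11 in both shUSP9X libraries, with a summed level of 3493, 3483, 3372 and 3334 CPM in the order shCtrl 1, shCtrl 2, shUSP9X 1 and shUSP9X 2. The keratin gene Krt19 was the most abundant of them, and Krt8, Krt18, Msln, Upk1b, Upk3b, Wt1, Lgals7, Gpm6a, Pkhd1l1 and Bnc1 were above 3 counts in all 4 libraries. The near-equal sums held genes that moved both ways, as 5 of the 12 tested markers rose and 5 fell (41.7% each). Among all genes tested, 33.8% were higher and 33.6% lower at the same threshold, an adjusted p under 0.05 in edgeR's test. The marker shares thus lay near those of all genes. Krt8 was at a log2 fold change of 0.92, Pkhd1l1 at -1.75, Gpm6a at -0.88 and Wt1 at -0.52 (adjusted p 4.03e-12 or lower for each). Krt7 was at 0, 0, 2 and 3 counts, and Muc16, the gene of the CA125 antigen, was at 33, 43, 1 and 0 counts. Leukocyte markers summed to 4.44 and 4.62 CPM in shCtrl and to 17.6 and 17.9 CPM in shUSP9X libraries, with Cd68 as the most abundant. Ptprc, Adgre1, Itgam and Csf1r had 0 counts in both shCtrl libraries, and in the shUSP9X libraries Itgam had 72 and 75 counts, Adgre1 58 and 59, Csf1r 17 and 13, and Ptprc, the pan-leukocyte antigen CD45, 29 and 18. Cd74 had 1, 4, 49 and 45 counts. C1qa, C1qb, Cd3e, Igkc and Cpa3 were at 0 in all 4 libraries. The leukocyte markers thus moved with the groups, as did the alpha-class genes, and their part in the results was not tested. Steroidogenic markers summed to 51.8, 59.5, 76.7 and 72.4 CPM, nearly all from Nr5a1 (log2 fold change 0.49, adjusted p in edgeR's test 6.97e-07). Star, the only other tested gene of the list, went the other way, at 80, 61, 39 and 32 counts (-1.13, adjusted p = 0.000872). Cyp17a1, Cyp19a1, Hsd3b1, Fshr and Lhcgr were at 0 in every library, and Inha and Amh were low. Kidney tubule markers (3.63, 4.68, 3.64 and 4.39 CPM, led by Cubn, with Lrp2 and Aqp1 above 3 counts in a group), intestinal markers (21.5, 23.8, 12.8 and 13.6 CPM, led by Lgr5, then Muc2) and endothelial markers (10.7, 11.7, 6.88 and 7.18 CPM, led by Tek, then Pecam1) did not lie higher in both shUSP9X libraries than in both shCtrl libraries. The intestinal and endothelial sums lay lower in both shUSP9X libraries and so moved with the groups as well. Log2 fold changes were -0.71 for Lgr5, -3.84 for Muc2 and -0.80 for Tek (adjusted p in edgeR's test 0.00012 or lower for each), whereas Pecam1 (0.04) did not pass. The part of these markers in the results was not tested. Each library pooled the RNA of a culture, so more cells with a transcript and more transcript per cell cannot be told apart.

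Of the 6 members, 5 lie in a row on chromosome 9 and 1 lies on chromosome 1 (GRCm38 coordinates, GENCODE M21 annotation). The row begins with Gsta4 (ENSMUSG00000032348, chr9:78182774-78209349, plus strand). It continues with Gsta1 (ENSMUSG00000074183, chr9:78230656-78242684, plus strand), Gm3776 (ENSMUSG00000111709, chr9:78257129-78269166, plus strand) and Gsta5 (ENSMUSG00000074179, chr9:78289923-78305525, plus strand). It ends with Gsta2 (ENSMUSG00000057933, chr9:78331018-78355788), which is on the minus strand. Gsta3 (ENSMUSG00000025934, chr1:21240589-21265661, plus strand) stands alone. GENCODE M21 calls the gene deposited as Gsta5 by the name Gm10639.

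Gsta1, Gm3776, Gsta5 and Gsta2 are close copies of each other, which limits what their separate counts can show. The coding sequences of Gsta1 and Gm3776 were 99.7% identical, with 2 mismatches in 669 aligned bases. Gsta1 was 97.6% identical to Gsta2 and 97.0% to Gsta5, and Gsta2 was 98.5% identical to Gsta5. Gsta3 was only 74.1% and Gsta4 66.3% identical to Gsta1. The 2 places where the coding sequences of Gsta1 and Gm3776 part are shown here, since a read that covers neither of them, nor an untranslated difference, has no base that tells the pair apart. Positions count from 1 at the first coding base of Gsta1, the substitutions from Gsta1 to Gm3776 are T25C and C591T, and capitals mark bases that differ from Gsta1.

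The first place, coding bases 5 to 45 of Gsta1 (chr9:78232244-78232284, plus strand, GRCm38), reads as follows in the 4 copies, with Gsta2 read from the minus strand.
Gsta1: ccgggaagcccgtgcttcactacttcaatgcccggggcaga
Gm3776: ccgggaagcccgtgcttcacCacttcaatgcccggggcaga
Gsta5: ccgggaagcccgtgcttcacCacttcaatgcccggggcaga
Gsta2: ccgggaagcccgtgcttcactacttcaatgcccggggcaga
The second place, coding bases 571 to 611 of Gsta1 (chr9:78242477-78242517, plus strand, GRCm38), reads as follows.
Gsta1: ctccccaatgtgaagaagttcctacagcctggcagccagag
Gm3776: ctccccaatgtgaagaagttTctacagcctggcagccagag
Gsta5: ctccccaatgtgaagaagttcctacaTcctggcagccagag
Gsta2: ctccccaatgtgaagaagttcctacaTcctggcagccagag

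At the first place Gsta5 had the base of Gm3776 and Gsta2 that of Gsta1, so that no single position separated all 4 copies. Over whole transcripts, 81.8% of the 100-base stretches of Gsta1 and 85.5% of those of Gm3776 occurred unchanged in another gene, mostly in each other. It was 270 of 771 stretches for Gsta2 and 268 of 894 for Gsta5, and none for Gsta3 and Gsta4. The deposited counts parted along similar lines. They were whole numbers in all 4 libraries for Gsta3 and Gsta4 and in none for Gsta1, Gm3776 and Gsta2, whose values were fractional. Those of Gsta5 were whole in 2 libraries, the shCtrl libraries with a count of 0, and fractional in the shUSP9X libraries. Counts of Gsta1, Gm3776, Gsta5 and Gsta2 taken singly are therefore uncertain, and their sum is given beside them.

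Gsta4 had 4296 and 3638 counts in the shCtrl libraries and 13668 and 11598 counts in the shUSP9X libraries, or 248, 230, 691 and 688 CPM. Both shUSP9X libraries lay far above both shCtrl libraries, and the libraries of each group lay close together. The level was 239 ± 12.5 CPM in shCtrl and 690 ± 2.2 CPM in shUSP9X (SD, n = 2 each), a log2 fold change of 1.53 ± 0.04 (SE). On the scale of FPKM, which is scaled for transcript length as well as depth, Gsta4 stood at rank 244 and 260 of all genes in the shCtrl libraries and at rank 97 and 99 in the shUSP9X libraries. None of the stretches compared is shared with another gene, so the level of Gsta4 does not rest on how reads were divided.

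Gsta1 encodes an enzyme that is scarce in unstressed tissue and inducible by antioxidants. It had 60.84 and 53.33 counts in shCtrl and 2043.01 and 1616.74 counts in shUSP9X libraries. Its level was 3.44 ± 0.117 CPM in shCtrl and 99.7 ± 5.22 CPM in shUSP9X (SD, n = 2 each), a log2 fold change of 4.86 ± 0.10 (SE). The groups lay more than an order of magnitude apart, without overlap.

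Gm3776, a predicted gene beside Gsta1, had 41.06 and 69.99 counts in shCtrl and 2096.68 and 1822.85 counts in shUSP9X libraries. The shCtrl libraries differed from each other more than for Gsta1, at 3.40 ± 1.46 CPM, and the shUSP9X libraries were at 107 ± 1.49 CPM. The log2 fold change was 5.0 ± 0.12 (SE). Gsta1 took 59.7% of the counts of the pair in shCtrl replicate 1 (95% Wilson interval 50.1 to 68.8%), 43.3% in shCtrl replicate 2 (34.7 to 51.9%), 49.4% in shUSP9X replicate 1 (47.8 to 50.9%) and 47.0% in shUSP9X replicate 2 (45.3 to 48.7%). The pair was thus divided about evenly in the shUSP9X libraries, and the shCtrl libraries scattered to both sides of that. These intervals cover counting error only, since no molecular identifiers are described, and they do not cover the error of dividing reads between copies.

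Gsta2, the other classical inducible member, had 6.10 and 12.67 counts in shCtrl and 92.34 and 80.35 counts in shUSP9X libraries. The level was 0.584 ± 0.337 CPM in shCtrl and 4.70 ± 0.066 CPM in shUSP9X, a log2 fold change of 3.02 ± 0.37 (SE). The groups did not overlap, but the size of the difference rested on which shCtrl library was used, with a log2 fold change of 2.51 without shCtrl replicate 1 and 3.74 without shCtrl replicate 2.

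Gsta5 was at 0 in both shCtrl libraries and had 12.96 and 12.06 counts in the shUSP9X libraries, or 0.685 ± 0.039 CPM. Against a floor of 3 counts in each shCtrl library, the counts as divided put it at least 3.78-fold higher in shUSP9X cells. This bound does not cover reads of the more abundant copies given to Gsta5 in error, since 268 of its 894 stretches of 100 bases occur in other copies. With all 4 copies summed, the counts were 108 and 135.99 in shCtrl and 4244.99 and 3532 in shUSP9X libraries. The summed copies were at 7.41 ± 1.68 CPM in shCtrl and 212 ± 3.62 CPM in shUSP9X, a 28.6-fold difference that does not depend on how reads were divided among them.

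Gsta3, whose mouse enzyme is known for detoxifying the aflatoxin epoxide, had 8 counts in each shCtrl library and 113 and 103 counts in the shUSP9X libraries. The level was 0.484 ± 0.032 CPM in shCtrl and 5.92 ± 0.28 CPM in shUSP9X, a log2 fold change of 3.59 ± 0.34 (SE). Gsta3 lies on another chromosome and shared none of the stretches compared with another gene, so its counts are separate from those of the chromosome 9 row.

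All 6 members passed the filter on low counts, and for all 6 both shUSP9X libraries lay above both shCtrl libraries. Of the 11448 genes tested, 41.2% had both shUSP9X libraries above both shCtrl libraries and 41.0% had both below. As the members were proposed from this contrast, nothing is read from their count. Gsta2, Gsta3 and Gsta5 had means under 1 CPM in shCtrl, and each had fewer than 10 counts in at least 1 shCtrl library, so that they passed through the shUSP9X libraries. In the order of log2 fold changes among the genes tested, Gm3776 stood at rank 47, Gsta1 at 48, Gsta3 at 70, Gsta2 at 83 and Gsta4 at 211. High ranks follow from how the members were proposed, and nothing is read from them either. With the same offset for GC content and length, the log2 fold change was 1.25 for Gsta4, 4.68 for Gsta1, 4.82 for Gm3776, 2.85 for Gsta2 and 3.98 for Gsta3.

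**Figure D2:**
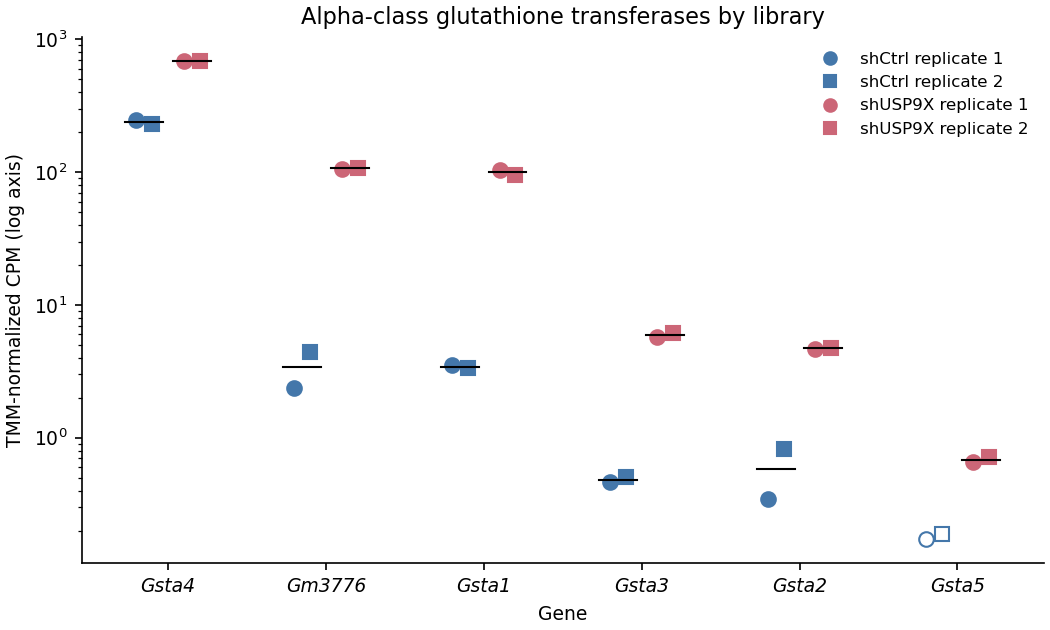
Points give the TMM-normalized CPM of each alpha-class gene in each library on a log axis (circles, replicate 1; squares, replicate 2; blue, shCtrl; red, shUSP9X), and short lines give group means. Open symbols mark libraries in which Gsta5 had a count of 0, placed at the level of 3 counts, and the groups are separate for every gene, from 239 against 690 CPM for Gsta4 to 0 against 0.685 CPM for Gsta5.

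Levels of different genes were compared by the deposited FPKM. In shCtrl cells Gsta4 stood at 247 ± 11.7 FPKM, far above Gsta1 at 3.97 ± 0.093 FPKM and Gm3776 at 3.93 ± 1.70 FPKM, which overlapped each other. Gsta2 at 0.700 ± 0.366 FPKM and Gsta3 at 0.553 ± 0.037 FPKM overlapped as well, and Gsta5 was listed at 0. In shUSP9X cells the order was Gsta4 at 699 ± 1.92 FPKM, Gm3776 at 121 ± 1.74 FPKM and Gsta1 at 113 ± 5.88 FPKM, then Gsta2 at 5.56 ± 0.105 FPKM, Gsta3 at 5.33 ± 0.680 FPKM and Gsta5 at 0.778 ± 0.049 FPKM (SD, n = 2 each). The shUSP9X values of Gsta2 and Gsta3 overlapped. Those of Gm3776 and Gsta1 did not, at 120 and 123 against 117 and 109 FPKM, but they rest on how reads of the pair were divided.

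The make-up of the alpha-class RNA is described next, without a test. Gsta4 held 97.4% of the alpha-class counts in shCtrl replicate 1 (95% Wilson interval 96.9 to 97.8%) and 96.2% in shCtrl replicate 2 (95.5 to 96.8%). It held 75.8% in shUSP9X replicate 1 (75.2 to 76.4%) and 76.1% in shUSP9X replicate 2 (75.5 to 76.8%). These intervals again cover counting error only, and those of the shCtrl libraries did not overlap each other. Gsta1 and Gm3776 together went from 2.31% and 3.26% in the shCtrl libraries to 23.0% and 22.6% in the shUSP9X libraries. By FPKM, which takes the transcripts' lengths into account, the share of Gsta4 was 97.0, 95.8, 73.9 and 74.1% in the same order. Although the copies differed by the larger factor, Gsta4 accounted for 451 CPM, or 68.2%, of the difference of 661 CPM in the summed level.

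**Figure D3:**
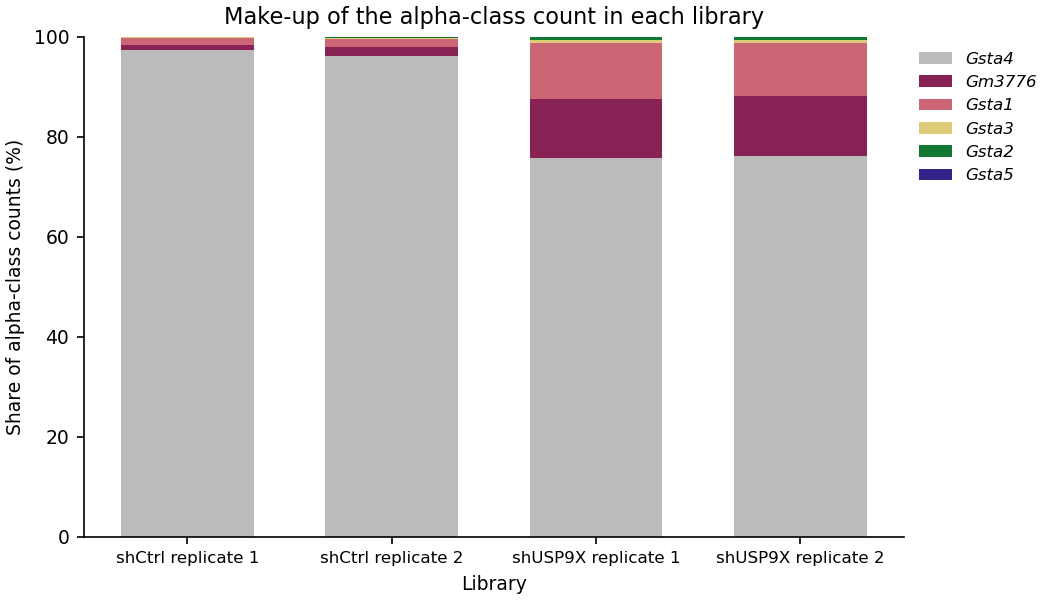
Stacked bars give the share of each alpha-class gene in the summed alpha-class count of a library, in percent on a linear axis from 0 to 100. Gsta4 fills 97.4 and 96.2% of the shCtrl bars and 75.8 and 76.1% of the shUSP9X bars, where Gm3776 and Gsta1 take most of the rest.

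Regions before the annotated starts were compared for the 5 members with an entry in RefSeq's promoter table (GRCm38.p6, 250 bases before to 50 after the start), and Gsta4 had none. The promoters of Gsta5 and Gm3776 were 97.4% identical, those of Gsta1 and Gm3776 90.7%, those of Gsta1 and Gsta2 74.6%, and those of Gsta1 and Gsta3 only 50.5%. For Gsta1 and Gsta5, RefSeq's start differs from the GENCODE start given above, so the place of a stretch depends on the annotation used. The stretches shown next lie between 75 and 16 bases before RefSeq's start of the 3 copies on the plus strand. Capitals mark a run of 45 bases that the 3 of them shared.
Gsta1: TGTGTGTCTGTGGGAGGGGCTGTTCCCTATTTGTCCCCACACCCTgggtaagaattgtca
Gm3776: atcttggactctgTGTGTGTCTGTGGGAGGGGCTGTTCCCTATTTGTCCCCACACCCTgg
Gsta5: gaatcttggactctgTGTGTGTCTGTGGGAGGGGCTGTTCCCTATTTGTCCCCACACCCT
They lie at chr9:78230594-78230653, chr9:78257054-78257113 and chr9:78289853-78289912, all on the plus strand.

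Motifs were searched by their letters on both strands. The antioxidant response element bound by NRF2, as TGACNNNGC, occurred in 12.39% of the 32851 promoters of the table and, among the 5 members, only in Gsta3, from 121 to 113 bases before the start. It is shown in capitals in the bases 140 to 94 before the start (chr1:21240445-21240491, plus strand).
Gsta3: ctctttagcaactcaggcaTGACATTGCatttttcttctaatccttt
The core of the xenobiotic response element bound by the aryl hydrocarbon receptor, GCGTG, occurred in 32.39% of all promoters and in those of Gsta1, Gsta2 and Gm3776, each within 15 bases of the start. The AP-1 motif TGAGTCA (5.20% of all promoters) and, on the gene's strand, TATAAA (8.32%) had no match in the 5 windows. A match is a string of letters in this window and says nothing of binding. Bases farther from the start were not searched, so the lack of a match in a member says nothing of elements there.

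The genes around the members were followed to see how far the difference reached along the chromosomes. Within 500 kb of a member the table held 25 other genes, of which 14 passed the filter. Of these 14, 7 rose and 1 fell at an adjusted p under 0.05, against 33.8% higher and 33.6% lower among all genes tested. Their log2 fold changes ran from -0.69 to 0.93, so that none reached that of Gsta4. The largest was that of Gclc, the catalytic subunit of the enzyme that limits glutathione synthesis, at 0.93 ± 0.05 (SE). Close to Gsta4, the kinase gene Cilk1 rose by 0.31 ± 0.08 (adjusted p = 0.00141, edgeR), and by 0.71 with the offset for GC content and length. The F-box gene Fbxo9 was at 0.28 ± 0.10 (adjusted p = 0.0122), which did not hold without shUSP9X replicate 2 (adjusted p = 0.188), with the offset for GC content and length (0.03, adjusted p = 0.785) or in DESeq2, with adjusted p from 0.00423 to 0.795 over 15 alternatives. Beyond Gsta2, Cgas, the cytosolic DNA sensor, rose by 0.67, the mitochondrial tRNA modifier Mto1 by 0.49 (0.31 with the offset) and the elongation factor Eef1a1 by 0.47. Slc17a5, a lysosomal sialic acid transporter, fell by 0.69 on the log2 scale. Elovl5 (0.07) and Cd109 (-0.10) on chromosome 9 did not pass the test. With the offset for GC content and transcript length they did, at 0.30 for Elovl5 (adjusted p = 2.02e-06) and, with its direction turned, at 0.36 for Cd109 (adjusted p = 5.28e-05), and over 15 alternatives the adjusted p reached 0.945 and 0.869. Cd109 also turned its direction without shCtrl replicate 1, and it passed as lower without shCtrl replicate 2. Elovl5 also passed without shCtrl replicate 1. Around Gsta3 on chromosome 1, the replication gene Mcm3 rose by 0.43 (0.21 with the offset), whereas Paqr8 (-0.56), Tram2 (0.15), Tmem14a (0.17) and Kcnq5 (-0.06) did not pass. Of these, Tram2 passed with the offset, at 0.29 (adjusted p = 0.00692, and 0.00474 to 0.427 over 15 alternatives), while the direction of Kcnq5 turned with the offset and without shCtrl replicate 2, and that of Tmem14a without shCtrl replicate 2 and without shUSP9X replicate 1. Of the genes between the members themselves, Omt2a and Omt2b had 0 counts in every library.

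**Figure D4:**
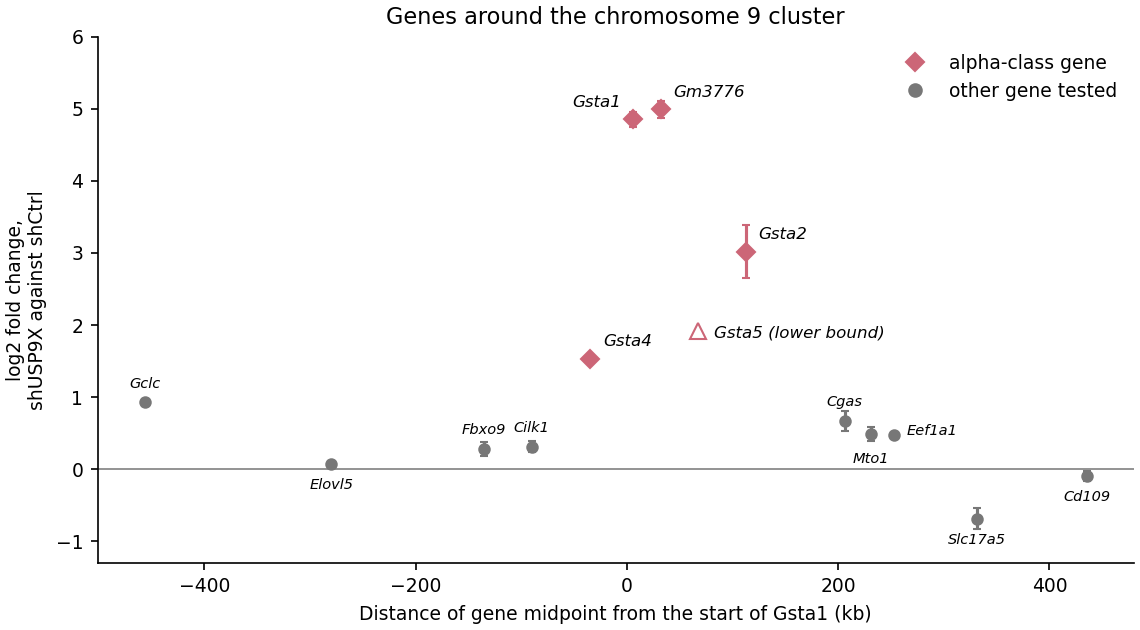
Points give the log2 fold change of shUSP9X against shCtrl with its SE for genes of the chromosome 9 region that passed the filter, placed by the distance of the gene's midpoint from the start of Gsta1 in kb (red diamonds, alpha-class genes; grey circles, other genes). The open triangle is the lower bound for Gsta5, which holds only for the counts as divided between the close copies. The other genes lie between -0.69 and 0.93 while the alpha-class genes lie at 1.53 or more.

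The 5 genes nearest to Gsta4 in their pattern were found by the Euclidean distance between log2 CPM values, centred on shCtrl, over the 4 libraries, among 7890 genes with a mean log2 CPM of at least 4. They were Blvrb (distance 0.106), Otud3 (0.128), Tsku (0.140), Psmb10 (0.145) and Blnk (0.157). Blvrb, which encodes biliverdin reductase B, had 225 and 188 counts in shCtrl and 708 and 649 counts in shUSP9X libraries. All 5 had log2 fold changes between 1.45 and 1.58, as follows from how they were picked.

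Other genes of glutathione metabolism were counted next, from lists chosen with earlier results of these data known. The median log2 fold change of all genes tested was 0.00, and 67.3% of them passed an adjusted p under 0.05 in edgeR's test, 33.8% as higher and 33.6% as lower. In each of the lists below the counts use that same fit. Some genes stand in several lists. Over all lists, 77 of 123 tested genes rose and 22 fell.

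Among genes that make and recycle glutathione, 9 of 17 rose and 3 fell, with a median log2 fold change of 0.28. Gclc went from 1373 and 1127 counts in shCtrl to 2781 and 2451 in shUSP9X libraries, a log2 fold change of 0.93 (adjusted p = 3.70e-14). Gsr, the reductase that restores oxidized glutathione, rose by 0.92 (adjusted p = 1.90e-16). Chac1, which breaks glutathione down, fell by 2.06 on the log2 scale, from 755 and 801 to 245 and 170 counts (adjusted p = 4.42e-15). Ggt1, which begins the breakdown of glutathione outside the cell, moved the other way, at 2 and 8 counts in shCtrl against 34 and 44 in shUSP9X libraries. In the fit on all libraries its log2 fold change, 2.80 ± 0.53 (SE, adjusted p = 4.40e-05), was the largest of the list. Its shCtrl libraries lay apart, at 0.115 and 0.506 CPM, so its size and its place above Chac1 rest on which of them is used. Oplah, which opens the oxoproline that glutathione breakdown leaves, fell by 1.25 (adjusted p = 3.92e-09).

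A list of glutathione transferases outside the alpha class and their membrane-bound relatives had 25 genes in the table and 14 tested, of which 9 rose and none fell, with a median of 0.91. Gstm5 was called lower with the offset for GC content and length, and Mgst1 with library size as the only scaling and without shCtrl replicate 1. The list includes Alox5ap, which activates 5-lipoxygenase and is among the 9, and the prostaglandin E synthase gene Ptges, which did not pass. The omega-class gene Gsto1 was at 6954 and 6273 shCtrl counts against 17547 and 15394 in shUSP9X libraries. Its log2 fold change was 1.17 (adjusted p = 1.12e-20). Gsto2 rose by 1.98 (adjusted p = 1.24e-07), and the mu-class genes Gstm1 and Gstm2 rose by 1.24 and 1.17 (adjusted p = 2.04e-09 and 2.67e-09). With the offset Gsto1, Gsto2, Gstm1 and Gstm2 were at 0.83, 1.66, 0.86 and 0.82. Gstp2, a pi-class gene at 2.28 and 3.17 counts in shCtrl against 19.49 and 17.16 counts in shUSP9X libraries, had the largest log2 fold change of the list, 2.65 ± 0.67 (SE, adjusted p = 0.00109). Its counts were fractional, like those of the alpha-class copies. Gsto2 and Gstp2 lay above Gsta4 (1.53) in size and below Gsta1 and Gm3776. The difference between classes was not tested.

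Of the glutathione peroxidases, which use glutathione to reduce peroxides, 3 of 4 rose, with a median of 0.62. Prdx6, Gpx1 and Gpx4 rose by 0.98, 0.74 and 0.49 (adjusted p = 8.73e-17, 5.66e-15 and 3.46e-11). With the offset for GC content and length these values were 0.94, 0.32 and 0.13. Gpx8 was at -0.06 (adjusted p = 0.560), and its direction turned with that offset and without shCtrl replicate 1.

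Enzymes that clear lipid aldehydes by other routes had 13 of 16 genes higher and none lower, with a median of 0.32. Aldh3a1, an aldehyde dehydrogenase, was at 463 and 393 counts in shCtrl against 2657 and 2268 in shUSP9X libraries, a log2 fold change of 2.38 (adjusted p = 1.44e-21). Adh7, an alcohol dehydrogenase, rose by 2.27 (adjusted p = 1.78e-16) and by 2.93 with the offset for GC content and length. Further rises were those of the carbonyl reductase gene Cbr3, by 1.78 (adjusted p = 1.75e-12) and the aldose reductase gene Akr1b3, by 0.84 (adjusted p = 3.42e-15) and 0.50 with the offset. With that offset, 8 of the list's genes were higher and 1 was lower.

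Genes that export glutathione conjugates or turn them into mercapturates moved in both directions, with 5 of 10 higher (3 in DESeq2) and 4 lower and a median of 0.38. The export pump gene Abcc4 rose by 0.74 (adjusted p = 1.23e-11). Acy3 and Acy1, aminoacylases that act on mercapturates, rose by 0.63 and 0.49 (adjusted p = 0.00468 and 0.00124), and both calls were lost with the offset (adjusted p = 0.245 and 0.415). Over 15 alternatives the adjusted p ran from 0.00109 to 0.257 for Acy3 and from 0.000234 to 0.433 for Acy1. Abcc10 was at -0.51 (adjusted p = 0.0314), a call that was lost in 6 of 15 alternatives, among them without shCtrl replicate 2, without shUSP9X replicate 1 and without shUSP9X replicate 2, with adjusted p from 0.00345 to 0.428 over the 15.

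NRF2 is held at a low level by the adaptor KEAP1 and the ubiquitin ligase scaffold CUL3, and BACH1 competes for its sites. Of 19 genes of the NRF2 regulators, 10 rose and 8 fell, with a median of 0.24. Among those that rose were Keap1, by 0.64 (adjusted p = 1.88e-10), and Nfe2l2, the gene of NRF2 itself, by 0.29 (adjusted p = 6.07e-08). With the offset for GC content and length, and in both limma-trend fits on FPKM, 5 genes of the list were lower in place of 8. Cul3 went from 4041 and 3529 counts in shCtrl to 2077 and 1816 in shUSP9X libraries and fell by 1.10 on the log2 scale (adjusted p = 2.51e-17). The direction of Cul3 turned with the offset for GC content and length, where its log2 fold change was 0.21 (adjusted p = 8.28e-05, the highest of 15 alternatives). Bach1 fell by 0.70 (adjusted p = 1.85e-08), Nfe2l3 by 1.01 (adjusted p = 2.53e-06) and Brca1 by 0.80 (adjusted p = 6.97e-12). With the offset their log2 fold changes were -0.42, -1.15 and -0.41.

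Of 29 NRF2 targets outside the transferases, 25 rose and 1 fell, with a median of 0.82. Nqo1, the quinone reductase gene that is widely used as a readout of NRF2, was at 444 and 422 counts in shCtrl against 3221 and 2634 in shUSP9X libraries, a log2 fold change of 2.61 ± 0.06 (SE, adjusted p = 9.51e-23). This exceeded the difference of Gsta4 and lay below those of Gsta1 and Gm3776. Blvrb rose by 1.58 and Sod3, an extracellular superoxide dismutase, by 1.43 (adjusted p = 3.53e-13 and 2.01e-18). The gene that fell was Slc7a11, the cystine transporter, and no gene of the list was lower with the offset.

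Of 13 genes of the aryl hydrocarbon receptor, 8 rose and 3 fell, with a median of 0.52. Cyp1a1, its best known target, was at 0 and 4 counts in shCtrl against 89 and 114 in shUSP9X libraries (adjusted p = 8.01e-10). Ahrr, the receptor's repressor and itself a target, rose by 1.32 (adjusted p = 4.63e-05), while Cyp1b1 and Tiparp, also among its targets, were among the 3 that fell. Nqo1 and Aldh3a1, given above, belong to this list too.

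Of 11 tested genes for other factors that have been tied to alpha-class genes, 4 rose and 4 fell, with a median of 0.11. The retinoid receptor gene Rxra rose by 0.79 (adjusted p = 1.45e-11). Cebpd and Gata6 fell by 0.71 and 0.54 (adjusted p = 1.76e-05 and 2.03e-08), and by 0.85 and 0.79 with the offset. Nr3c1, the glucocorticoid receptor gene, fell by 0.91 on the log2 scale (adjusted p = 1.25e-14), but with the offset it was at -0.06 (adjusted p = 0.283, and up to 0.302 over 15 alternatives).

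**Figure D5:**
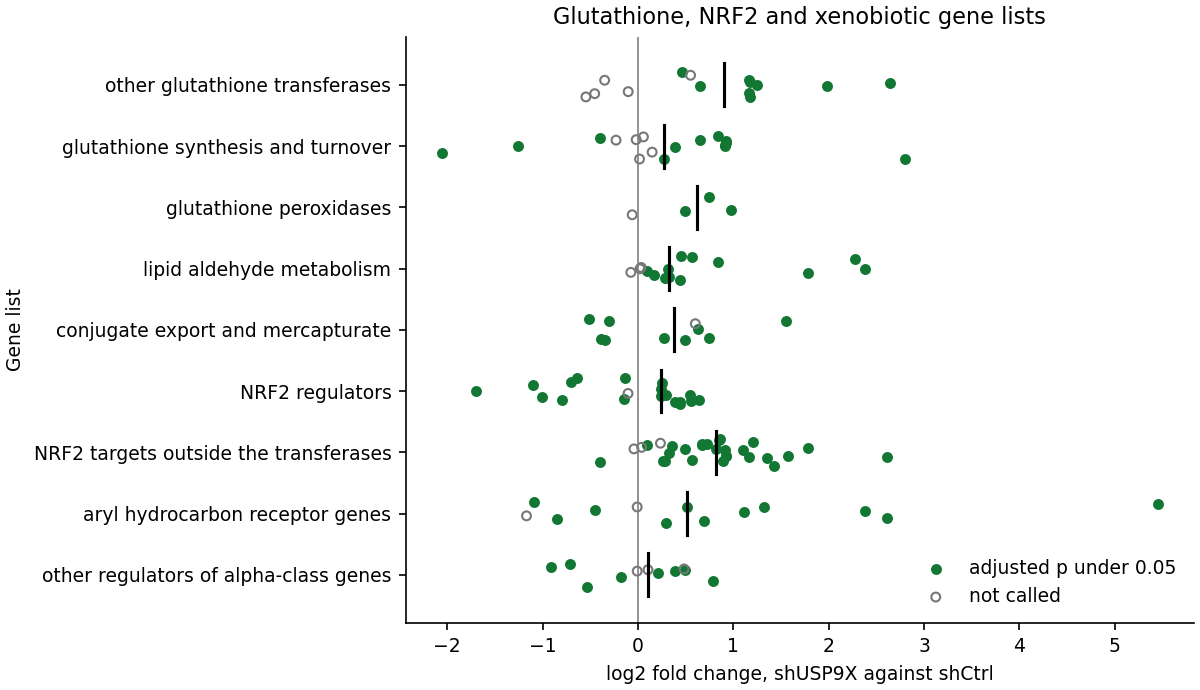
Each point is the log2 fold change of shUSP9X against shCtrl for 1 tested gene of a list (filled green, adjusted p under 0.05; open, not called), spread vertically for visibility, and black lines are list medians. Medians run from 0.11 for the other regulators to 0.91 for the other transferases, against 0.00 for all genes tested.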

How the data were processed

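RNA of 2 shCtrl and 2 shUSP9X libraries of ID8 cells was enriched with oligo(dT) beads, made into libraries with the NEBNext Ultra kit and sequenced on an Illumina NovaSeq instrument. Per the study's methods, the authors mapped reads to GRCm38 and used StringTie and DESeq2. The submitters' processing notes list fastp 0.18.0, Bowtie2 2.2.8, HISAT2, StringTie 1.3.1 and RSEM, without saying which made the counts or how reads of close copies were divided. Strand-specific counting is not stated. For each gene the authors deposited estimated counts, not normalized, and FPKM, scaled for length and depth, of each library without pooling. Of the count values, 6.40 to 6.69% per library were not whole (tolerance 1e-06).

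Counts were rounded to whole numbers, filtered with filterByExpr and scaled by TMM. The 11448 genes left were compared by edgeR's quasi-likelihood test (edgeR 4.0.16 in R 4.3.3), and p-values were adjusted by the Benjamini-Hochberg method. The common biological coefficient of variation was 0.0352. Libraries of the same group were farther apart than sampling noise (chi-square per gene 3.37 in shCtrl and 2.09 in shUSP9X), so no library was a copy of another. The members and lists were chosen with earlier results of these data known. Named genes were the members and Usp9x, all genes within 500 kb of a member that passed the filter, the 5 genes nearest to Gsta4, per list all genes if at most 4 were tested and otherwise up to 4 called, non-overlapping genes with the largest absolute log2 fold change (mean log2 CPM at least 1), and, for marker lists, the most abundant gene and genes above 3 counts in a whole group. Other markers, Ggt1, Gstm5, Mgst1, Gstp2, Alox5ap, Ptges, Keap1, Nfe2l2, Slc7a11, Cyp1b1, Tiparp, Omt2a and Omt2b were named after their values were seen.

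Identifiers of 21973 of the 22063 genes were in GENCODE M21, which gave coordinates, coding sequences and transcripts, aligned globally with Biopython 1.88. A count of 3 in a library was taken as the floor of detection, for counting error only. The edgeR procedure was tested on simulated data for this comparison, where it recovered 90% of 200 genes changed by 2-fold among 11332 genes and called 6 unchanged ones. The simulation gave every gene the common biological coefficient of variation and held no trend on GC content or length. These rates may therefore not hold for the libraries here. Alternatives were DESeq2 1.42.0, other scalings and filters, limma-trend (limma 3.58.1) on FPKM with a pseudocount of 1 or 0.1 before the log2 (mean FPKM at least 1), a replicate block, a loess offset (span 0.3) for GC content and length (known for 99.8% of the genes tested), each library left out, close copies summed, and the sum without Gsta4.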

Additional observations from a re-analysis of the deposited data

How the results depend on the processing

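The number of genes past the threshold stayed between 6169 and 7821 over 15 alternatives (7707 as reported) and between 6741 and 7521 when 1 library was left out. The genes themselves changed more than their number. With the offset for GC content and length 7222 genes passed, and 5772 of them were among the 7707. Usp9x was lower throughout, at -3.89 to -3.80 with 1 library left out and -2.31 with the offset for GC content and length. The log2 fold change of the summed alpha-class level, 1.88 as reported, was 1.84 to 1.93 with 1 library left out. It was 1.62 with the offset, 1.62 with the replicate block and the offset, and 4.79 without Gsta4. All 6 members were higher in shUSP9X, but only 3 passed a minimum of 10 counts in every library, summing the close copies left 3 rows that were all higher, and 5 to 6 were counted with 1 library left out, since Gsta5 was not tested when a shUSP9X library was missing. Of the list genes, 84 to 99 were called over the alternatives (99 as reported) and 89 to 97 with 1 library left out. A pseudocount of 1 FPKM drew the low members in, to 1.97 for Gsta2 and 2.02 for Gsta3. Under the other scalings, the median over all tested genes shifted by no more than 0.03.

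Replicate numbers are shared by the groups, but same-numbered libraries did not deviate together (correlation of deviations -0.039, 2 pairs). With the replicate block 7665 genes were called, the summed difference was 1.88 and all 6 members were higher. With 2 libraries a group, and 0 to 69.99 counts per shCtrl library for 5 of the 6 members, depth limits the precision of their fold changes.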
